A study of Homo sapiens with 2 samples.

Results

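Introns held 8183 of the 75217 ATAC-seq peaks called in SUM159 cells with dCas9-KRAB and guides to the ZEB1 promoter, counting only peaks that had no counterpart in cells without a targeting guide. These intronic All gRNA only peaks were chosen by presence and position: they lay on chromosomes 1 to 22 or X, overlapped no peak of the control list by 1 bp or more, and had a summit more than 1000 bp from every annotated transcript start, in no exon and inside a gene body of GENCODE release 44 on hg38. On these chromosomes 23.8% of the 68238 All gRNA peaks were absent from the control list. Among the 28004 intronic All gRNA peaks the share was 29.2% (exact binomial 95% interval, 28.7 to 29.8%). In the mirrored direction, 29.0% of the 27670 intronic peaks of the control list were absent from the All gRNA list, 8025 peaks.

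SUM159 is a cell line derived from a triple negative breast tumour, of the claudin-low type and with mesenchymal features. Both populations were transduced with pLV-KRAB, a lentiviral vector for dCas9-KRAB, in which a Cas9 without cleavage activity carries the KRAB repressor domain. The No gRNA population, the control, received the vector with no targeting guide, and the All gRNA population received it with all 4 guides. Each group was 1 library, which leaves the conditions without replicates, so no p-value is given. Whether the cells were pooled or 1 clone is not given for these libraries in the sources used here. The depth recovered from the peak values of the All gRNA library was 0.743 times that of No gRNA. The No gRNA list had 2 peaks within 1000 bp of the main ZEB1 start site, with folds of 6.31 and 6.80 and pileups of 25 and 27, and the All gRNA list had none there. A mesenchymal cell type was checked at promoters, where 10 of 10 mesenchymal marker genes, among them VIM, CDH2, AXL and FN1, had a peak in both libraries. Promoter peaks were common, since 60.3% of all protein-coding genes had a peak at the main start site in both libraries. Of 10 luminal markers EPCAM, GATA3, FOXA1 and KRT8 had one in both libraries, CLDN4 had one in No gRNA only and CLDN7 in All gRNA only, and CDH1, CLDN3, ESR1 and ESRP1 had none in either. Of 6 markers of blood, endothelium and neurons, PECAM1 and SYP had a promoter peak in both libraries and RBFOX3 in All gRNA.

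ATAC-seq marks accessible DNA by the places where the transposase Tn5 inserts adapters, and accessible sites in introns are often enhancers of the host gene or of a neighbour. ZEB1 is a zinc-finger repressor that binds E-boxes of the form CAGGTG and the related CAGGTA, and it drives the epithelial to mesenchymal transition, in part by repressing the E-cadherin gene CDH1. AP-1, which binds TGACTCA, and TEAD factors, which bind GGAATG, are general activators at enhancers of mesenchymal breast cancer cells. Sequence was not used to choose the peaks, so it could be compared between sets, with intervals that cover counting error over peaks only.

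The sequences below are examples chosen because they held CAGGTG or CAGGTA, and are not typical of all these peaks. They are 4 of the 6 that held either among the 10 strongest by −log10 q, and the E-box holding peak of the CDH1 gene. The CDH1 peak was added after its values were seen. Each is the plus strand of hg38, 5′ to 3′, over 201 bp centred 60 bp below the deposited summit in coordinate, for the reason given with the motif profiles. Capitals mark the ZEB1 E-boxes and the AP-1 sequence named above, on either strand. Read from the other strand, the first E-box appears as CACCTG, the related one as TACCTG and the AP-1 sequence as TGAGTCA on the printed strand.
ATG16L1, chr2:233247893-233248093: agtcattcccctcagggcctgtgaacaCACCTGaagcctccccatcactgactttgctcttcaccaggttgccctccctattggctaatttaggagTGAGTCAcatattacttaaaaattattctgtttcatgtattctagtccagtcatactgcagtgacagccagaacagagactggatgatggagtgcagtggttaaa
LINC01205, chr3:109643712-109643912: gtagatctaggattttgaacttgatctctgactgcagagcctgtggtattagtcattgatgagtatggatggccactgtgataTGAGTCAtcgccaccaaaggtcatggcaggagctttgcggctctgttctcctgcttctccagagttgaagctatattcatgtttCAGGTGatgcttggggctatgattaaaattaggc
TEP1, chr14:20401177-20401377: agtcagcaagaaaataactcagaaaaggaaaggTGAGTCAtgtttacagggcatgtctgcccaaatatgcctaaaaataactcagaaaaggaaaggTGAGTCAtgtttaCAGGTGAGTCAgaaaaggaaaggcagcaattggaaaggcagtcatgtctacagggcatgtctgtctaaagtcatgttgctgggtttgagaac
TMPRSS11A, chr4:67922871-67923071: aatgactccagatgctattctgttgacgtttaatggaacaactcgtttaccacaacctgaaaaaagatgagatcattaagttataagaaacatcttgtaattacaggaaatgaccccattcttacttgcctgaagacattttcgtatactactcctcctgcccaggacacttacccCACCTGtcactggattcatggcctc
CDH1, chr16:68756320-68756520: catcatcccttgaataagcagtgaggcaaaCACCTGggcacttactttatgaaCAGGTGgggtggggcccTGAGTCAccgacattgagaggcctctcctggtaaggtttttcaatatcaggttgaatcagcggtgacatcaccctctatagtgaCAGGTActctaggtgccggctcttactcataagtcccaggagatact

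The CDH1 window held 2 copies of CAGGTG, 1 of CAGGTA and 1 of TGACTCA. The ATG16L1 and LINC01205 windows each held 1 CAGGTG and 1 TGACTCA. The TEP1 window, in the gene of a telomerase-associated protein, held 1 CAGGTG and 3 copies of TGACTCA, and its E-box shared letters with the last of them. The window in the transmembrane protease gene TMPRSS11A held 1 CAGGTG and no TGACTCA. Such matches are letters in the reference and do not show binding.

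CAGGTG was more frequent at the intronic All gRNA only peaks than at intronic peaks found in both libraries. Within 100 bp either side of the summit, on both strands, it was present in 1240 of 8183 peaks (15.2%, 14.4 to 15.9%), against 2203 of 19821 shared intronic peaks of the All gRNA list (11.1%, 10.7 to 11.6%) and 853 of 8025 intronic No gRNA only peaks (10.6%, 9.96 to 11.3%). Among all All gRNA peaks on these chromosomes the share was 13.1%. The difference from shared peaks was 4.04 points (Newcombe 95% interval, 3.16 to 4.94), and that from No gRNA only peaks was 4.52 points (3.49 to 5.55). With shared peaks weighted to the same classes of −log10 q and GC content the difference was 4.76 points (3.76 to 5.77). CAGGTG lay only inside a match to the CTCF core in 0.281% of the intronic All gRNA only peaks and 0.247% of the shared ones.

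The related E-box CAGGTA differed in the same direction, and the comparison E-box CAGCTG did not. CAGGTA was present in 8.65% (8.05 to 9.28%) of the intronic All gRNA only peaks, in 5.62% (5.30 to 5.94%) of the shared and in 5.32% (4.84 to 5.83%) of the No gRNA only peaks. The differences were 3.04 points (2.36 to 3.74) and 3.33 points (2.55 to 4.12). CAGCTG was present in 10.8% (10.2 to 11.5%) of the intronic All gRNA only peaks, below the 12.3% (11.8 to 12.8%) of the shared and beside 11.6% (10.9 to 12.3%) of the No gRNA only peaks. Over all All gRNA peaks the shares were 6.30% for CAGGTA and 12.0% for CAGCTG.

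The sets also differed in where the E-boxes lay. In shared intronic peaks the density of CAGGTG fell from 48.7 sites per 1000 peaks and 50 bp at 450 bp before the summit to 26.8 at 100 bp before it, and was 50.1 at 450 bp after it. In No gRNA only peaks the same positions had 42.6, 25.3 and 49.6. In the intronic All gRNA only peaks they had 45.2, 45.3 and 46.1, so that no dip at the centre was seen. CAGGTA dipped to 11.8 sites at 50 bp before the summit in shared peaks and to 8.35 in No gRNA only peaks, and had 25.2 there in the intronic All gRNA only peaks. The comparison E-box and AP-1 instead had their highest densities near the summit in all 3 sets.

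The deposited summits were displaced from the motif centre in both libraries. Within 200 bp, 79.8% of the AP-1 sequences of the intronic All gRNA only peaks lay at lower coordinates than the summit, with a median of -63 bp, and the other intronic sets of both libraries had medians of -65 to -68 bp. Windows moved by -60 bp were therefore added after this had been seen. In them CAGGTG was present in 15.3% (14.5 to 16.1%) of the intronic All gRNA only peaks and 10.2% (9.79 to 10.6%) of the shared, and CAGGTA in 8.85% and 4.78%. Flanking windows 2000 bp to either side held CAGGTG in 15.0% and 16.4% and CAGGTA in 8.98% and 8.83%. The level at the peak was 1.02 times that of the flanks for CAGGTG and 0.986 times for CAGGTA in the intronic All gRNA only peaks, and 0.624 and 0.541 times in the shared ones. In No gRNA only peaks the ratios were 0.644 and 0.529. CAGCTG stood at 1.65 times its flanks in the All gRNA only peaks, at 1.68 in the shared and at 1.62 in the No gRNA only peaks.

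Either E-box, CAGGTG or CAGGTA, was present in the moved window of 1874 intronic All gRNA only peaks (22.9%, 22 to 23.8%), of 14.5% (14.1 to 15.0%) of the shared and of 14.4% (13.6 to 15.2%) of the No gRNA only peaks. Read the other way, 27.1% (26.6 to 27.7%) of the intronic All gRNA peaks without such an E-box were absent from the control list, 37.9% (36.4 to 39.4%) of those with 1, 51.2% (46.5 to 55.8%) of those with 2 and 54.1% (40.8 to 66.9%) of the 61 with 3 or more. With an E-box and no AP-1 sequence the share was 42.9% (41.1 to 44.7%), and with AP-1 and no E-box it was 22.2% (21.3 to 23%). Among the All gRNA only peaks with a −log10 q of at least 15, 71 of 183 (38.8%, 31.7 to 46.3%) held an E-box, above the 20.9 to 24.7% of the weaker classes, while shared peaks stood at 13.7 to 14.9% in every class. The No gRNA only peaks stood at 22.6% (15.3 to 31.3%) in the weakest class, beside 21.9% (18.6 to 25.4%) of the All gRNA only peaks there, at 13.9 to 16% in the classes between, and at 11.0% (8.60 to 13.8%) at a −log10 q of at least 15. Of the 100 strongest peaks 37 held an E-box and 21 of these an AP-1 sequence as well.

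The excess was not particular to introns. The difference in either E-box between All gRNA only and shared peaks was 8.36 points (7.33 to 9.40) in introns, 8.23 (6.94 to 9.55) between genes and 8.36 (4.33 to 12.6) in exons, whose intervals overlap, and 11.4 (9.44 to 13.5) within 1000 bp of a start site. With summits within 150 bp as the rule for sharing, the difference was 7.76 points (6.79 to 8.74) in introns and 8.73 (7.31 to 10.2) within 1000 bp of a start site. With a reciprocal overlap of 50% it was 7.06 (6.11 to 8.02) in introns and 6.84 (5.51 to 8.20) within 1000 bp of a start site, which then no longer stood above introns.

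AP-1 was the most frequent of the sequences searched at the intronic All gRNA only peaks, but less so than at shared peaks. TGACTCA was within 100 bp of the summit in 26.2% (25.2 to 27.2%), against 33.2% (32.6 to 33.9%) of the shared and 22.8% (21.9 to 23.7%) of the No gRNA only intronic peaks, and 24.3% of all All gRNA peaks. GGAATG, the TEAD sequence, was in 14.3% (13.6 to 15.1%), below both the shared (17.3%) and the No gRNA only peaks (16.8%). The C/EBP sequence TTGCNNAA was in 15.5% (14.7 to 16.3%), beside 14.8% of the shared and above the 12.7% (12.0 to 13.5%) of the No gRNA only peaks. The sequence AACNGGTT of the epithelial Grainyhead-like (GRHL) factors was rare, in 1.60% (1.34 to 1.90%) against 1.33% (1.17 to 1.5%) and 1.20% (0.970 to 1.46%). The CTCF core was in 2.84% (2.49 to 3.22%), between the shared (2.13%) and the No gRNA only peaks (3.59%). The RUNX sequence TGTGGT was in 16.8% (16.0 to 17.6%), beside 18.3% of the shared and 17.8% of the No gRNA only peaks. For the ETS sequence CCGGAA the share was 1.91% (1.62 to 2.23%), beside 2.55% and 2.24% in the same order. The GATA sequence AGATAA was in 12.6% (11.9 to 13.4%), beside 11.5% of the shared and 13.6% (12.9 to 14.4%) of the No gRNA only peaks. The forkhead sequence TGTTTAC was in 4.83% (4.37 to 5.31%) and the KLF sequence GGGTGTGG in 2.21% (1.90 to 2.55%), each with an interval that holds the share in the shared peaks. Over all All gRNA peaks these shares were 14.1% for TEAD, 11.9% for C/EBP, 1.31% for GRHL, 2.74% for CTCF, 14.9% for RUNX, 6.57% for ETS, 9.20% for GATA, 3.88% for forkhead and 2.32% for KLF. Median GC content was 43.3% in the All gRNA only and No gRNA only peaks and 44.3% in the shared ones.

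The intronic All gRNA only peaks were small. Their median −log10 q was 5.31 (range 1.33 to 40.9), their median fold over the local background 5.39, their median width 227 bp, and their recovered pileup, the number of extended read ends over the summit, had a median of 8 (range 4 to 56). Shared intronic peaks of the same list had medians of 11.5, 8.16, 329 bp and 15. Strength and presence in a list come from the same peak calls, so these values describe the choice and were not tested. In 10 classes of −log10 q the share of intronic All gRNA peaks absent from the control fell from 64.8% of the weakest to 0.143% of the strongest, 4 of 2801 peaks. A −log10 q of at least 10 was reached by 915 peaks (11.2%) and of at least 20 by 41.

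At the edges of the rule the members were close to their neighbours outside it. The nearest control peak lay within 1000 bp of 868 peaks (10.6%), and 20 had one within 20 bp, while 22 intronic peaks counted as shared overlapped their partner by at most 20 bp. The median gap to a control peak was 12298 bp. The summit was at 1001 bp or within the next 100 bp from a start site in 84 peaks, and 89 All gRNA only promoter peaks lay 900 to 1000 bp from one. Peaks with a control peak within 1000 bp held an E-box in 22.2% (19.5 to 25.2%), and those with none within 10 kb in 22.6% (21.4 to 23.8%).

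The strongest intronic All gRNA only peak was in ATG16L1, which encodes a protein of the autophagy conjugation machinery, at chr2:233247782-233248190 with a pileup of 54, a fold of 12.1 and 40.9 as its −log10 q. Its summit was at -3.62 kb from the main start site, inside a longer transcript, and 3267 bp from the nearest control peak. SGCZ, the gene of zeta-sarcoglycan, held the next, with a fold of 17.0 and a pileup of 30, in intron 1 of 7. The long noncoding LINC01205 had one with a fold of 15.2 and a pileup of 24. Among the 10 strongest were also peaks in TEP1, in the potassium channel subunit gene KCNAB1, in the syndecan gene SDC1, in the adhesion gene HEPACAM2 and in TMPRSS11A, with folds of 11.4 to 14.6 and pileups of 23 to 32. The SDC1 peak was 135 bp from a control peak, and the other peaks named here were 3267 to 41278 bp from one.

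Introns were the commonest place for peaks of 1 library. Of the All gRNA only peaks 50.5% (49.7 to 51.3%) were intronic, 33.8% intergenic, 12.2% within 1000 bp of a start site and 3.50% exonic. The intronic share was 47.9% (47.2 to 48.7%) for No gRNA only and 38.1% (37.7 to 38.5%) for shared peaks, of which 35.1% lay at start sites. By chromosome, the share of intronic All gRNA peaks absent from the control ranged from 25.2% (20.4 to 30.4%) on chromosome 22 to 31.8% (29.0 to 34.8%) on chromosome 9.

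Within the host gene the first-intron share did not differ beyond its interval from that of other intronic peaks. Of the 5794 peaks with exactly 1 protein-coding host, 4974 had a summit within an intron of its main transcript, and the others, before or after that transcript, were left out here. A first intron of the main transcript held 1396 of 4974 peaks (28.1%, 26.8 to 29.3%), against 29.5% of shared (difference -1.43 points, -2.90 to 0.0691) and 28.4% of No gRNA only peaks (difference -0.370 points, -2.13 to 1.39). The last intron held 6.45% (5.78 to 7.18%), beside 5.92% and 6.24%. The median distance from the main start site was 68.6 kb, beside 64.6 kb and 67.4 kb. E-boxes were present in 22% (19.8 to 24.3%) of the peaks in first introns and 24.2% (22.8 to 25.7%) of those in later ones.

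Protein-coding genes hosted 73.7% (72.8 to 74.7%) of the intronic All gRNA only peaks and long noncoding RNA genes alone hosted 25.1% (24.2 to 26%), beside 22.6% (21.7 to 23.5%) of the No gRNA only and 23.6% (23 to 24.2%) of the shared intronic peaks. Of 19970 protein-coding genes, 3652 (18.3%) were hosts, and 3669 hosted an intronic No gRNA only peak. At least 2 peaks lay in 1308 hosts (35.8%, 34.3 to 37.4%), at least 5 in 164 and at least 10 in 17, and the most in 1 gene was 16. For No gRNA only peaks 36.1% (34.6 to 37.7%) of the hosts had at least 2. Of the hosts, 70.1% also held a shared intronic peak, 49.8% a No gRNA only one and 22.7% neither. At their main start site 64.9% (63.3 to 66.4%) of the hosts had a peak in both libraries, 1.34% (0.994 to 1.77%) only in All gRNA, 3.31% (2.76 to 3.95%) only in No gRNA and 30.5% in neither. Over all protein-coding genes these shares were 60.3%, 1.43%, 2.62% and 35.6%.

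Genes with several such peaks were long. The median gene body was 27.5 kb over all protein-coding genes, 88.7 kb in hosts of 1 peak, 217 kb in hosts of 2 to 4 and 647 kb in hosts of 5 or more. The number per 100 kb of intron was 0.438 to 0.565 in genes of 10 to 500 kb and 0.458 in genes over 500 kb, where shared peaks dropped to 0.926 from 1.17 to 1.47. In genes over 500 kb, 33.3% (31.7 to 34.8%) of the intronic All gRNA peaks were absent from the control, above the 27 to 29.0% in genes of 10 to 500 kb. Had each peak the share of its class of −log10 q, 30.1% would be. The mirrored share of No gRNA only peaks in genes over 500 kb was 30.9% (29.4 to 32.5%), beside 30.2% from the classes. Either E-box was present in 26% (24.1 to 27.9%) of the peaks in hosts of 1 and in 20.7% (18.4 to 23.3%) of those in hosts of 5 or more, and AP-1 in 31.1% and 30.7%.

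TENM2 and CNTNAP2 had the most intronic All gRNA only peaks, 16 each. TENM2 encodes a teneurin, a synaptic adhesion protein, and held 24 shared and 3 No gRNA only intronic peaks besides, so that 16 of its 40 intronic All gRNA peaks were absent from the control (40%, 24.9 to 56.7%). Its strongest such peak, at chr5:168227097-168227389, had a fold of 10.9 and a pileup of 16, and the 16 pileups ranged from 6 to 17. CNTNAP2, of the neurexin superfamily, held 11 shared and 12 No gRNA only peaks, and 59.3% (38.8 to 77.6%) of its intronic All gRNA peaks were absent from the control. The diacylglycerol kinase gene DGKB had 15 (62.5%, 40.6 to 81.2%) and the postsynaptic scaffold gene DLG2 14 (46.7%, 28.3 to 65.7%). The Slit receptor gene ROBO2 had 13 of 20 (65%, 40.8 to 84.6%) and ROBO1 had 11 of 25 (44%, 24.4 to 65.1%). The cAMP phosphodiesterase gene PDE4D had 13 of 44 (29.5%, 16.8 to 45.2%), close to the 29.2% of all intronic All gRNA peaks. ASTN2 had 13, and the ankyrin gene ANK3 and the readthrough IQCJ-SCHIP1 had 11 each. E-boxes were present in 4 of the 16 TENM2 peaks, in 5 of the 16 of CNTNAP2 and in 1 of the 13 of ROBO2. Of these 10 genes, CNTNAP2, DLG2 and PDE4D had a peak at the main start site in both libraries and the other 7 in neither.

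Among genes with at least 4 intronic All gRNA only peaks, those with the most per 100 kb of gene body were shorter genes. A count divided by length favours short genes. TNIP1, an inhibitor of NF-kB signalling, had 4 peaks in 63.6 kb, or 6.29 per 100 kb, with pileups of 6, 11, 12 and 13. It held 3 shared and no No gRNA only intronic peak. NUAK1, a kinase of the AMPK family, had 4 (5.29 per 100 kb) with pileups of 8, 12, 13 and 17, and the last of these was 134 bp from a control peak. SOCS5, a suppressor of cytokine signalling, had 4 (4.92 per 100 kb), all 19665 bp or more from a control peak, with pileups of 6, 8, 10 and 12. PCDH17, TACC1, RNF217, COL8A1, GDA, USP25 and KCNC1 followed with 3.28 to 4.10 per 100 kb. Among genes with at least 5 intronic All gRNA peaks, the share absent from the control was highest in FILIP1, whose product binds filamin. There it was 6 of 7 (85.7%, 42.1 to 99.6%). It was 5 of 6 in the ubiquitin ligase gene RNF217, the deubiquitinase gene USP25, the nitric oxide synthase gene NOS1 and ZNF804A. Genes with fewer intronic peaks can reach 100%, as FAP did with 2 of 2. FILIP1 and ZNF804A also held 3 No gRNA only intronic peaks each and RNF217 1. None of the 6 FILIP1 and none of the 5 RNF217 peaks held an E-box, and SOCS5 and TNIP1 each had CAGGTA in 2 of 4.

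Groups of these peaks were counted by the distance between summits, and the same counts were not made for the other sets. With summits up to 5000 bp apart, 261 groups of 2 or 3 took in 527 peaks (6.44%), and 5 of the groups had 3. With summits up to 50000 bp apart, 1414 groups took in 3264 peaks (39.9%) and the largest held 8. A close set of 4 lay in DST, the gene of the hemidesmosomal plakin dystonin, at chr6:56649949-56670459, over 20.5 kb that also held 1 shared and no No gRNA only peak. Their pileups were 7, 8, 18 and 8, and their folds 4.82, 4.33, 9.31 and 6.06.

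Genes of epithelial adhesion were hosts in part. Of 34 cell junction genes 10 held at least 1 intronic All gRNA only peak, and these were 18 of the list's 55 intronic All gRNA peaks (32.7%, 20.7 to 46.7%), an interval that holds the 28.6% counted over all protein-coding genes, of which 18.3% were hosts. CDH1, the E-cadherin gene, had 2, both in intron 2 of 15 and 33433 bp or more from any control peak. The first, at chr16:68744922-68745173, had a fold of 8.33 and a pileup of 12 and no E-box, and the second, at chr16:68756289-68756773, had a fold of 8.75, a pileup of 13 and the 3 E-boxes shown above. CDH1 also held 1 shared and 1 No gRNA only intronic peak, and no peak at its main start site in either library. The tight junction scaffold gene TJP1 and the catenin gene CTNNA1 had 3 each, with pileups of 6 to 9. AFDN, of adherens junctions, had 2 and no No gRNA only peak. Of 10 hemidesmosome and laminin-332 genes 6 were hosts, with 14 of 51 peaks (27.5%, 15.9 to 41.7%), close to that background. DST had 7, the laminin chain gene LAMA3 had 3, and the integrin gene ITGA6 had 1.

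Of 19 epithelial transcription and splicing factor genes, TP63 and GRHL2 were the hosts, with 1 peak each. The list had 2 of 31 intronic All gRNA peaks absent from the control (6.45%, 0.791 to 21.4%), beside 28.6% over all protein-coding genes and 23.7% from the classes of −log10 q, and 13 of 40 intronic No gRNA peaks absent from All gRNA (32.5%, 18.6 to 49.1%). Of 20 polarity, protease and trafficking genes 7 were hosts, with 22 of 63 (34.9%, 23.3 to 48.0%), an interval that holds the 28.6% of all protein-coding genes and the 29.1% from the classes of −log10 q. The cell polarity gene PARD3 had 8, the strongest with a fold of 10.9 and a pileup of 20, and held 21 shared peaks. The myosin gene MYO5B, for apical vesicle transport, had 4 of its 6 intronic All gRNA peaks absent from the control and its main start site had a peak in All gRNA and not in No gRNA. The microtubule-binding gene MAP7 had 3 of 4, each 29104 bp or more from a control peak.

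Of 28 mesenchymal genes 6 were hosts, with 9 of 44 peaks (20.5%, 9.80 to 35.3%), an interval that holds both the 28.6% of all protein-coding genes and the 30.1% from the classes of −log10 q. In the mirrored direction 16 of 51 intronic No gRNA peaks were absent from All gRNA (31.4%, 19.1 to 45.9%). ZEB1 had 1, at chr10:31353678-31354009 in intron 1 of 8, 34.7 kb after the main start site, with a fold of 7.41 and a pileup of 10. The gene held no shared intronic peak and 1 No gRNA only. Outside the intronic class, overlapping ZEB1 peaks were in both lists, 63028 bp after the main start site in All gRNA and 63024 bp in No gRNA. Their folds were 6.74 and 5.45. TCF4 had 3 intronic All gRNA only peaks and the fibroblast activation protein gene FAP had 2. The TGF-beta pathway list had 17 of 85 (20%, 12.1 to 30.1%), with 4 in the BMP receptor gene BMPR1B and 3 in the ubiquitin ligase gene SMURF1. The Hippo pathway list had 19 of 73 (26%, 16.5 to 37.6%), of which the TEAD coactivator gene WWTR1 held 4, the strongest with a pileup of 27. The EGF receptor family and its ligands had 25 of 97 (25.8%, 17.4 to 35.7%), with 7 each in ERBB4 and NRG1. The intervals of these last 3 lists also hold the 28.6%.

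The very long genes of the nervous system were the list with the largest share, among lists chosen with earlier results of these data known. Of 20 genes, with a median body of 1762 kb, 19 were hosts and 16 held at least 2. Of all 322 protein-coding genes over 500 kb, 290 (90.1%) were hosts and 241 (74.8%) held at least 2. In the list, 124 of 297 intronic All gRNA peaks were absent from the control (41.8%, 36.1 to 47.6%). The classes of −log10 q of these peaks would give 33.7%. In the mirrored direction 87 of 259 intronic No gRNA peaks were absent from All gRNA (33.6%, 27.9 to 39.7%), beside 30.4% from the classes. Counted per 100 kb of intron, the list had 0.370 All gRNA only, 0.259 No gRNA only and 0.516 shared peaks, below the 0.508, 0.516 and 1.27 of all protein-coding genes. Besides CNTNAP2 and DLG2, the catenin gene CTNNA3 had 11 and MACROD2 had 10. The paper counts CTNNA3 among pro-epithelial genes, so the name of the list does not fully describe its genes. E-boxes were present in 23 of the 124 peaks (18.5%, 12.1 to 26.5%).

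The intervals over peaks or genes cover counting error only, since neighbouring peaks and peaks of 1 gene share a library and a locus. With 1 library per group, the guides, the difference in depth and any difference between the cultures cannot be told apart. A peak that is called in 1 list can have signal below the threshold in the other.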

How the data were processed

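ATAC-seq was performed on 1 No gRNA and 1 All gRNA library. The authors used fastp for trimming and bowtie2 for alignment to hg38, discarded duplicates and reads from mitochondria or excluded regions, and called peaks in each library separately with MACS2 without a control (tool versions not given in the sources used here). The deposited lists give positions, summits, a fold enrichment (a ratio) and −log10 p and q values as the authors' caller wrote them. Other columns were not used.

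Peaks were classified by summit against GENCODE release 44 on hg38, the files' build. Pileups were solved from the deposited fold and −log10 p (tolerance 0.001), a procedure that recovered 100% of 5000 known pileups when tested on simulated data. Motifs were searched on both strands of hg38 in 201 bp windows. Shares carry exact binomial and differences Newcombe 95% intervals (Python 3.11.15, scipy 1.17.1). Named items were the 10 strongest peaks, the 10 genes with most peaks, the 10 densest with at least 4, the 5 with the largest share among those with at least 5 intronic peaks, and up to 4 hosts per list. The peaks and gene lists were chosen with earlier results of these data known. Alternatives changed the rule for sharing, the −log10 q, the start-site distance, the gene models and the sequence window. Some items that the naming rules chose are not reported here.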

Additional observations from a re-analysis of the deposited data

How the results depend on the processing

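No paired analysis was possible because there was 1 library per condition. The 8183 intronic All gRNA only peaks became 4214 at a −log10 q of at least 5 and 915 at 10, and stayed within 1.5 times under the other rules. Their share of the All gRNA only peaks, 50.5%, was 45.9% with a reciprocal overlap of 50%, 46.4% with summits within 150 bp, 52.0% with a gap of up to 1000 bp, 40.6% beyond 4000 bp from start sites and 38.4% with protein-coding genes only. The share of intronic All gRNA peaks absent from No gRNA, 29.2%, was 36.0%, 33.7% and 26.1% under the 3 rules for sharing, 19.7% and 7.35% at a −log10 q of at least 5 and 10, and 28.5% with protein-coding genes only. Hosts with 2 or more peaks, 35.8%, were 40.9%, 38.8% and 34.0% under the rules for sharing and 25.2% and 9.15% at the higher −log10 q, where fewer peaks are counted. The excess of CAGGTG over shared peaks, 4.04 points, was 2.31 points within 50 bp of the summit, 5.44 within 200 bp and 5.09 in windows moved to the AP-1 position, which was chosen after seeing the data. It was higher in the All gRNA only peaks under all 7 alternatives. The first-intron share, 28.1%, was 49.1% when the first intron of any transcript counted. The median pileup of these peaks was 8, at which a few read ends separate a call from no call.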
